A study of Homo sapiens with 10 samples.

Results

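The genes described here are 10 genes of glycolysis, read in HCT116, a widely used line derived from a colorectal carcinoma: HK1, HK2, GPI, ALDOA, TPI1, GAPDH, PGK1, ENO1, PKM and LDHA. They were taken by name, out of 19821 protein-coding genes on chromosomes 1 to 22 and X, and all 10 were found in the annotation. Their peaks were those inside the gene or within 1 kb of either gene end (RefSeq, GRCh38). The 10 were chosen by the presence of POLR2A peaks and the absence of POLR1A peaks in these lists, so both properties are described below, without a test, and support nothing. CUT&Tag was used, in which an antibody guides a transposase (pAG-Tn5) that cuts and tags nearby DNA. Its targets were POLR1A, a catalytic subunit of RNA polymerase I (3 samples), POLR2A, its counterpart in RNA polymerase II (3 samples), H3K4me3, a histone mark of active promoters (1 sample), and H3K9me3, a mark of heterochromatin (3 samples). All 10 samples were unmodified (WT) HCT116 cells without treatment named in the labels, with 100000 to 200000 cells per replicate. Replicates of a target came from separately thawed aliquots of this 1 line, handled on different days.

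Glycolysis splits glucose into pyruvate in the cytosol and yields ATP and NADH without oxygen. Hexokinases trap glucose as a phosphate ester, aldolase and triosephosphate isomerase produce and interconvert the triose phosphates, and the enzymes from GAPDH onward recover ATP. Lactate dehydrogenase then regenerates NAD+. Tumour cells, colorectal carcinoma included, are known for high glycolytic flux, and many of these genes are classical targets of the factors HIF-1 and MYC.

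The deposited data were 4 peak lists, 1 per target, with 3812 POLR1A, 19997 POLR2A, 17181 H3K4me3 and 16414 H3K9me3 peaks on these chromosomes. The size of a peak is given as the authors' fold enrichment, a linear ratio over the background of their peak caller, and it ranks peaks only within 1 list. No list held values per replicate, so no value below has an SD or a p, and read depth is unknown. Of 14 marker genes of colonic epithelium, 7 had POLR2A and H3K4me3 at an end (EPCAM, CDH1, KRT8, KRT18, KRT19, CDX2 and SOX9), while CDX1, VIL1, CDH17, ASCL2, LGR5, KRT20 and MUC2 had neither. The colonic share of 50% in each list is near that of all protein-coding genes, 41.3% for POLR2A and 54.6% for H3K4me3. Of 5 leukocyte markers 1 had POLR2A and 0 had H3K4me3, and of 5 fibroblast markers 0 had POLR2A and 1 had H3K4me3. Of 4 liver markers 1 had both (APOA1). Of 4 neuronal markers 2 had POLR2A (RBFOX3 and SYT1) and 2 had H3K4me3 (SYT1 and MAP2), the same share as in the colonic list, so these lists do not set colonic markers apart by counts.

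The genes were not uniform. POLR2A lay at an end of 7 of the 10 (HK2, ALDOA, TPI1, GAPDH, PGK1, ENO1 and PKM), against 41.3% of all protein-coding genes. HK1 and GPI carried POLR2A only deep in the gene body, as did 11.9% of all protein-coding genes. LDHA had no peak of any list, as was the case for 31.1% of protein-coding genes, so for LDHA the description "with POLR2A" does not hold in these lists. H3K4me3 lay at an end of the same 7 genes, against 54.6% of protein-coding genes and 96.3% of those with POLR2A at an end. POLR1A was at an end of 0 of the 10, against 11.2% of protein-coding genes and 26% of those with POLR2A at an end. H3K9me3 was at an end of 0 of the 10, against a background of 2.7%. In the gene body beyond the end windows, 4 of the 10 had POLR2A (background 23.5%), 3 had H3K4me3 (14.6%), 0 had POLR1A (4.72%) and 0 had H3K9me3 (12.3%). With backgrounds this low, 0 of 10 is not read as a result about H3K9me3 at these genes.

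**Figure D1:**
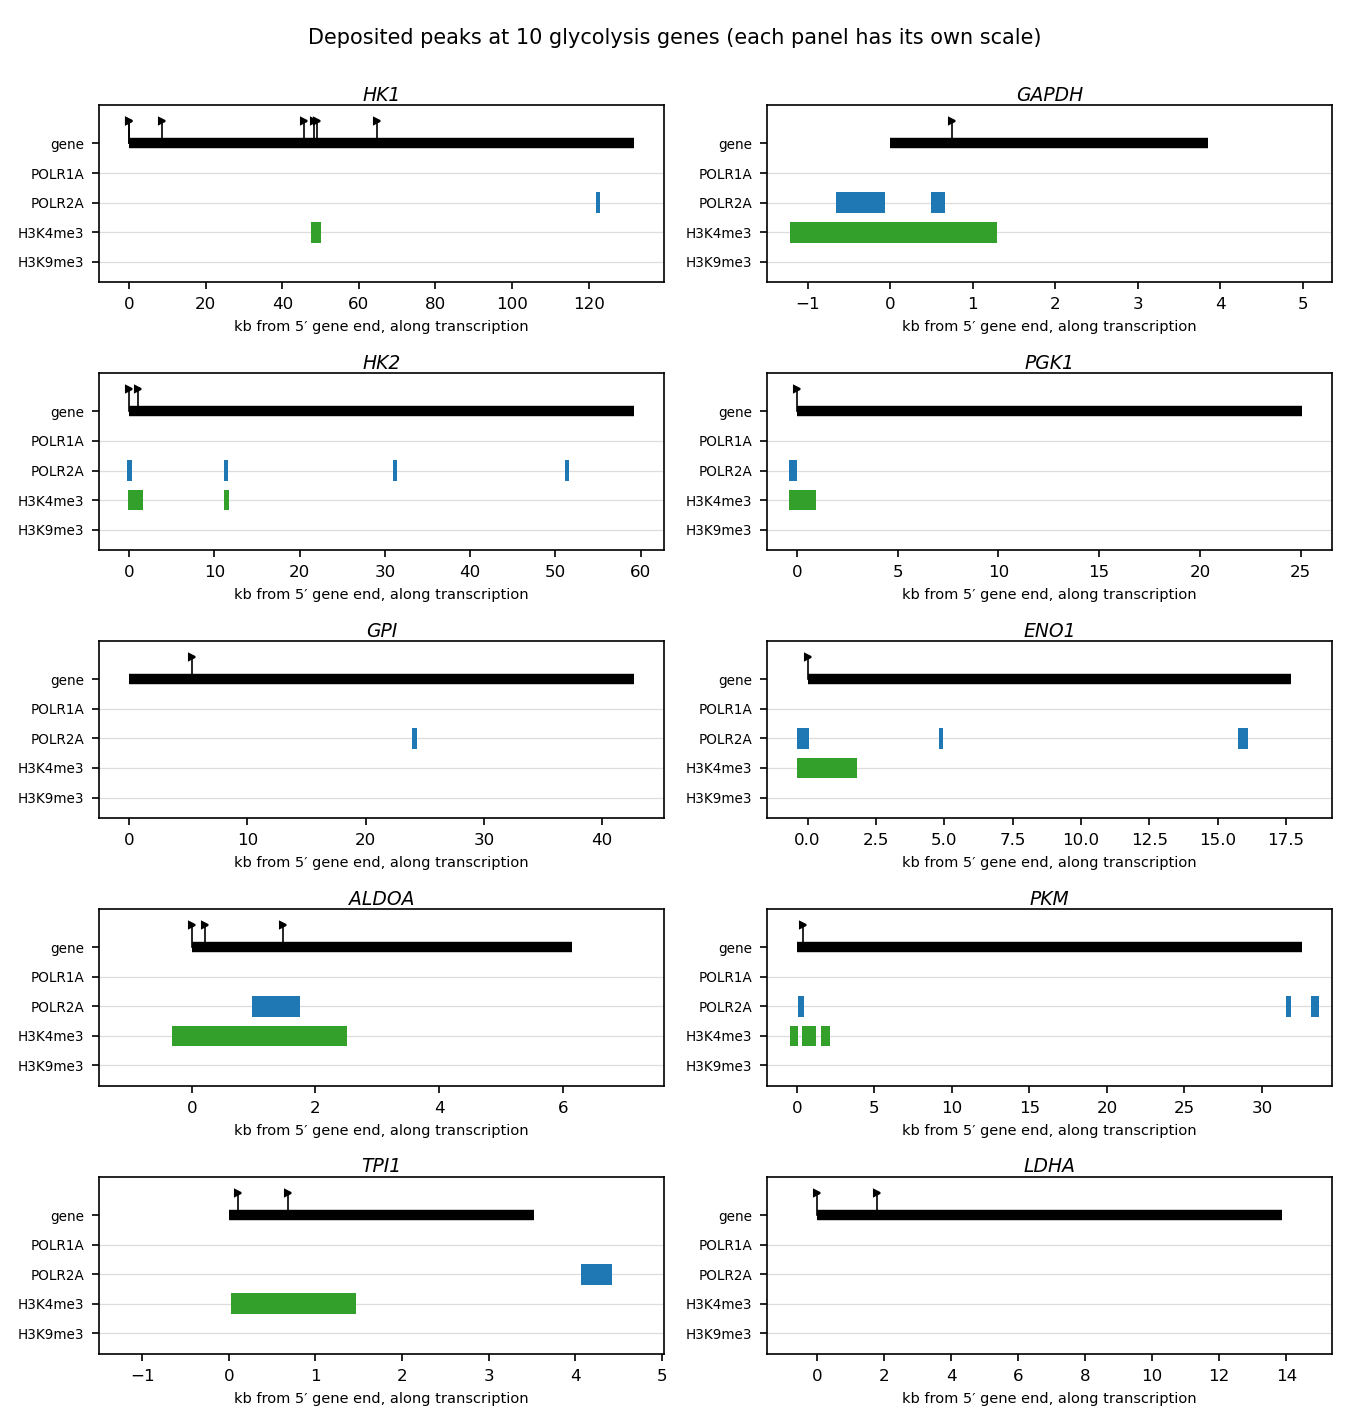
Peaks of the 4 lists at each of the 10 genes, drawn along the direction of transcription in kb from the 5′ gene end, each panel with its own scale. The black bar is the gene, arrows are RefSeq transcript starts, and coloured bars are peaks, with the narrowest widened to stay visible. In 6 genes a POLR2A peak and an H3K4me3 peak overlap near a start, TPI1 and HK1 have H3K4me3 alone there, GPI has 1 POLR2A peak in its body, and LDHA is empty.

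Gene ends mix starts and terminators, so positions were also read against the RefSeq transcript starts. The promoter table used listed 21 of these for the 10 genes, and it is not complete. For GAPDH and GPI it listed 1 start each, 747 bp and 5274 bp inside the gene, and none at the 5′ gene end. Distances, sequence and motifs of GAPDH at a start are therefore read at this internal start. POLR2A was within 1 kb of a start in 6 genes (background 44%) and H3K4me3 in 8 (58.5%). HK1 and TPI1 made the difference, with H3K4me3 and no POLR2A peak at a start. POLR2A was within 1 kb of the 3′ gene end in 2 genes, TPI1 and PKM (background 4.98%), and H3K4me3 in 0 (5.05%).

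At 6 of the genes a POLR2A summit fell within the 250 bases before a RefSeq start (at GAPDH that of the weaker of 2 peaks). These 250 bases are shown (RefSeq, GRCh38.p14, 5′ to 3′ on the gene's strand). They hold the summit but are not the peak itself, which can cover only part of them. Capitals mark matches on either strand to 5 motifs. The first is the TATA box, spelled TATAAA. The next are the CCAAT box and the GC box, spelled GGGCGG. The remaining motifs are the core of the hypoxia response element, spelled ACGTG, and the E-box that MYC can bind, spelled CACGTG, which contains the hypoxia core on both strands.
HK2: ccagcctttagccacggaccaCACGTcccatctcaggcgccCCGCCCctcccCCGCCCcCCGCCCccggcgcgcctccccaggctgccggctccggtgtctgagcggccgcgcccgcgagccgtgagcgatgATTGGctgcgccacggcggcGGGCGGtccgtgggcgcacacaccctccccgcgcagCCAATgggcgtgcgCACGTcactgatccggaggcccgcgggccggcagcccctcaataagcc
ALDOA: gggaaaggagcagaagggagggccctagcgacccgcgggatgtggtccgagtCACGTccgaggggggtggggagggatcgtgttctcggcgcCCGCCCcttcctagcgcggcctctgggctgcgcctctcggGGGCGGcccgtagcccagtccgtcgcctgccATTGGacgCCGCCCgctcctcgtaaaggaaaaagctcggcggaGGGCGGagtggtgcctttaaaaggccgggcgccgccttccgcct
GAPDH: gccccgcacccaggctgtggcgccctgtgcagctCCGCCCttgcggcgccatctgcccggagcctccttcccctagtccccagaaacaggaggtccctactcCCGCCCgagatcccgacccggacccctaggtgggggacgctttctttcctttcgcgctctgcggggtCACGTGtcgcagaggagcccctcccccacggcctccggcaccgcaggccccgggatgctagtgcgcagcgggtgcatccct
PGK1: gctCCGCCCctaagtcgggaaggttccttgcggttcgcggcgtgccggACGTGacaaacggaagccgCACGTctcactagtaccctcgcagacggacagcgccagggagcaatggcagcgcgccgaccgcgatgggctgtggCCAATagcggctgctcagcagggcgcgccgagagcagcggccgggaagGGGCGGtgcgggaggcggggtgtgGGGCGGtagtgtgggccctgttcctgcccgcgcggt
ENO1: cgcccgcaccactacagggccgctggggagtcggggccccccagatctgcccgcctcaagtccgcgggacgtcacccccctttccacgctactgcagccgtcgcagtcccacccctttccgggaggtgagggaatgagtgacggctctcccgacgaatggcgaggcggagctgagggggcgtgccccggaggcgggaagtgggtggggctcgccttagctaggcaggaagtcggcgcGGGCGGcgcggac
PKM: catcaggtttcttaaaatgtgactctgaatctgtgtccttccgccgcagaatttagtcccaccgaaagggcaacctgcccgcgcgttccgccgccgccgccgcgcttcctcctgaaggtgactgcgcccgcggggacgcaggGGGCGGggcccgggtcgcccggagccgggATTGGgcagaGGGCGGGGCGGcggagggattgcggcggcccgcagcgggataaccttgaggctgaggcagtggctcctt
They lie at chr2:74833877-74834126, chr16:30065510-30065759, chr12:6535014-6535263, chrX:78103998-78104247, chr1:8878687-8878936 (minus) and chr15:72231191-72231440 (minus). The sequence before the first LDHA start, chr11:18394313-18394562, is shown as the contrast without any peak.
LDHA: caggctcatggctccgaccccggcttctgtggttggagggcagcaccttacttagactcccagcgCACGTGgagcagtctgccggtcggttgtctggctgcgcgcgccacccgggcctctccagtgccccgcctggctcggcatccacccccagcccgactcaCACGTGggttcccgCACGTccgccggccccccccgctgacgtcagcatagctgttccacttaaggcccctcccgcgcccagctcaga

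The hexokinase genes, whose products commit glucose to the cell, differed from each other. HK2, the inducible hexokinase gene on chromosome 2 (74834127 to 74893359, plus strand), had a POLR2A peak over its first start, at 74833989 to 74834263. That peak had a fold enrichment of 10.3, with its summit 59 bp before the start, inside the sequence shown. The H3K4me3 peak there (9.5) was 1654 bp wide, began inside the POLR2A peak, and had its summit 106 bp beyond the second RefSeq start. Inside HK2 lay 3 further POLR2A peaks, with fold enrichments of 9.24, 5.51 and 3.13. The first of them, at 74845300 to 74845656 and 11491 bp from the 5′ end by its summit, was overlapped by a narrow H3K4me3 peak of 219 bp (5.71). The last had the lowest −log10 q of all peaks counted at the 10 genes, 1.07, close to the threshold of the list. HK1, the hexokinase gene of most tissues, spans 69270000 to 69401882 on chromosome 10, plus strand, and has 7 RefSeq starts. The 5′ gene end carried no peak. H3K4me3 covered a pair of starts inside the gene, with a peak of 547 bp (4.27) at 69317911 to 69318457 and one of 1427 bp (8.97) at 69318726 to 69320152. The POLR2A peak of HK1 (5.80) lay far from these, at 69392312 to 69392660, which is 9222 bp before the 3′ end.

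GPI encodes glucose-6-phosphate isomerase and lies on chromosome 19 (34359718 to 34402413, plus strand). Its 1 peak in any list was a POLR2A peak of 197 bp in the body, at 34383747 to 34383943, with a fold enrichment of 5.62 and a −log10 q of 4.79. The summit lay 18888 bp beyond the RefSeq start, which itself is 5274 bp inside the gene end. ALDOA, the main aldolase gene of most cells, lies on chromosome 16 (30064279 to 30070420, plus strand). Its POLR2A peak (11.9) spanned 30065246 to 30066024, with the summit 132 bp before the third of 3 RefSeq starts and 1349 bp beyond the 5′ gene end. Its H3K4me3 peak (6.97) ran over all 3 starts and was 2829 bp wide, the widest at any of the 10 genes. Both peaks also lie inside LOC112694756, an overlapping gene. TPI1, the triosephosphate isomerase gene on chromosome 12 (6867420 to 6870948, plus strand), had H3K4me3 (5.83) at 6867442 to 6868888 and no POLR2A at its starts. The POLR2A peak counted for it (7.30) began 535 bp past the 3′ end, inside the neighbouring gene SPSB2, so it need not belong to TPI1.

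GAPDH encodes the dehydrogenase that makes NADH and lies on chromosome 12 as well (6534517 to 6538371, plus strand). A POLR2A peak of 6.66 at 6533858 to 6534458 ended 59 bp before the gene, over the divergent transcript GAPDH-DT. A second POLR2A peak of 3.95 lay at 6535014 to 6535182. Its summit was 223 bp before the 1 listed RefSeq start, which is 747 bp inside the gene. An H3K4me3 peak 2514 bp wide (6.52) covered both. PGK1, the phosphoglycerate kinase gene on chromosome X (78104248 to 78129295, plus strand), had the highest values of the 10 genes in both lists. Its POLR2A peak (15.9, at 78103851 to 78104254) had its summit 173 bp before the start, and its H3K4me3 peak (14.9) was 1346 bp wide.

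ENO1, the enolase gene on chromosome 1 (8861000 to 8878686, minus strand), had POLR2A at its start with a fold enrichment of 11.6 and the summit 172 bp upstream. Another POLR2A peak of 9.40 at 8862556 to 8862938 lay 1556 bp inside the 3′ end without H3K4me3, and a further one of 4.74 lay in the body. H3K4me3 at the ENO1 start (7.05) was 2187 bp wide and, like the POLR2A peak, reached into the antisense gene ENO1-AS1. PKM, the pyruvate kinase gene on chromosome 15 (72199029 to 72231591, minus strand), had POLR2A at its start (7.37), with the summit 19 bp upstream. That peak bridged a pair of H3K4me3 peaks, of 6.80 and 4.19, and overlapped each at an edge, and a weaker H3K4me3 peak (2.5) lay in the body. At the 3′ end of PKM, a POLR2A peak of 5.50 lay 678 bp inside the gene and another of 5.29 lay 600 bp past it, within 1 kb of an end of GRAMD2A. Neither overlapped H3K4me3. LDHA, which encodes the muscle-type lactate dehydrogenase subunit (chromosome 11, 18394563 to 18408425, plus strand), was empty. Its nearest POLR2A, H3K4me3 and POLR1A peaks all lay at TSG101, 118 kb, 118 kb and 119 kb away.

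The edges of the window decided few of these calls. The ALDOA POLR2A peak was the one closest to the limit from inside, with its near edge 967 bp from the 5′ gene end. Just outside lay H3K4me3 peaks 1330 bp from TPI1 (4.81, at SPSB2), 1419 bp from PKM (8.59, at GRAMD2A) and 1581 bp from GAPDH (1.65), and a POLR2A peak 1556 bp from GAPDH (3.87), the last pair at NCAPD2.

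All 6 sequences with a POLR2A summit held GGGCGG, from 1 match at ENO1 to 4 at HK2 and at ALDOA, and the motif was in 75.6% of the 5065 promoter sequences of protein-coding genes with a POLR2A summit. Matches were counted over the whole sequence, so a match need not lie under the peak. CCAAT was in 4 of the 6 (HK2, ALDOA, PGK1 and PKM), against 44% of those promoters. TATAAA was in 0 of the 6, against 3.46%. ACGTG was in 4 of the 6 (HK2, ALDOA, GAPDH and PGK1), against 26.3%, and CACGTG in 1, GAPDH, against 9.69%. That GAPDH match lies outside the POLR2A peak. The LDHA sequence held 2 CACGTG matches and no GGGCGG, and its second start, not shown, had GGGCGG. With every listed start counted, 7 of the 10 genes had ACGTG before at least 1 start, against 25.3% of protein-coding genes. CACGTG was before at least 1 start of 4 of the 10 (HK2, ALDOA, GAPDH and LDHA), against 9.73%. By the same count GGGCGG was at 9 of the 10, against 62.1%, CCAAT at 5, against 40.2%, and TATAAA at 0, against 11.9%. The 10 genes had 2.1 starts each on average and all genes 1.4, and each further start is a further chance of a match. The G and C content of the 6 sequences ran from 68.4% to 76.8%, with a median of 71.2%, against a median of 66% in promoters with a POLR2A summit. A match describes letters only, and binding of these factors was not measured.

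The strength of POLR2A at the 7 genes with an end peak was ordinary. Fold enrichment ran from 6.66 at GAPDH to 15.9 at PGK1 with a median of 10.3, against a median of 8.87 and a middle 50% of 6.23 to 12.7 over the 8192 protein-coding genes with POLR2A at an end. PGK1 ranked 956 of 8192, ALDOA 2389, ENO1 2497, HK2 3199, PKM 5212, TPI1 5274 and GAPDH 5802. The TPI1 rank is that of the peak past its 3′ end, which need not belong to TPI1. The GAPDH rank is that of the peak just before its 5′ gene end, which also lies over GAPDH-DT. Each of the 7 was set beside the 10 genes nearest to it in this rank. Of these 70 genes, 10 had POLR1A at an end (14.3%), against 26% of all genes with POLR2A. The count was 4 of 10 around ENO1, 3 around PGK1, 2 around HK2, 1 around ALDOA and 0 around TPI1, GAPDH and PKM. Most genes of like POLR2A strength therefore lacked POLR1A too, and as the 10 genes were picked for its absence, nothing more is read from it.

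**Figure D2:**
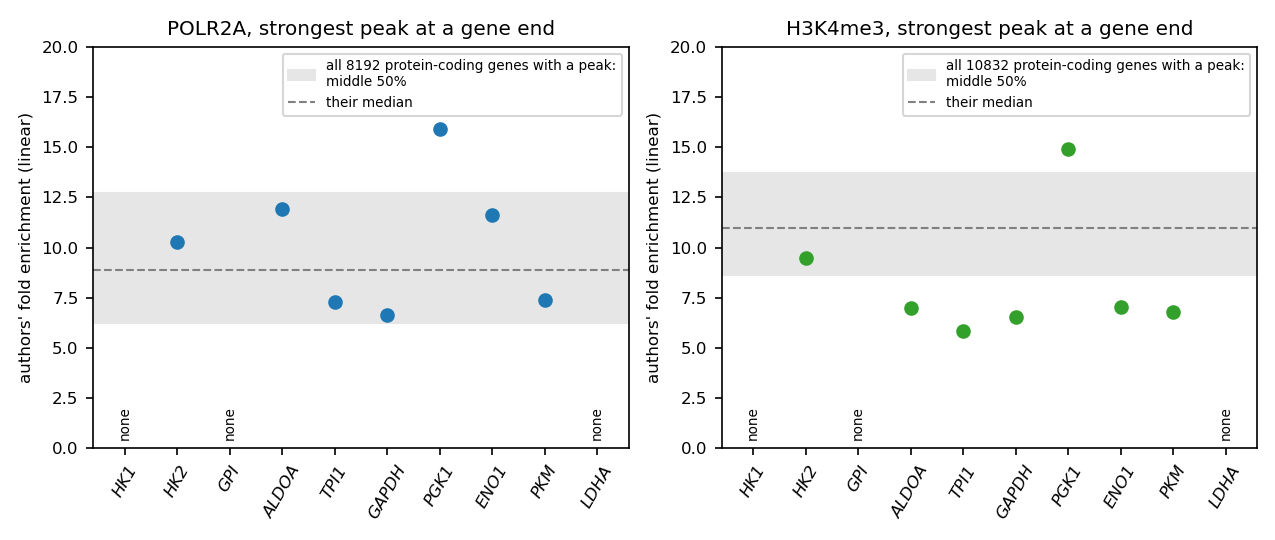
The authors' fold enrichment (linear) of the strongest POLR2A peak (left) and H3K4me3 peak (right) at either end of each gene. Points are the 10 genes, the grey band is the middle 50% of all protein-coding genes with such a peak and the dashed line their median. For POLR2A 6 of 7 points lie in the band and PGK1 above it at 15.9, and for H3K4me3 5 of 7 lie below the band.

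H3K4me3 was not used to pick the genes, and there 5 of the 7 lay below the middle 50% of all genes in height, with HK2 inside it and PGK1 above it, while 6 of the 7 were wider than the median of all genes. Fold enrichment had a median of 6.97 and a range of 5.83 (TPI1) to 14.9 (PGK1), against a median of 11 and a middle 50% of 8.63 to 13.7 over the 10832 protein-coding genes with H3K4me3 at an end. The 70 genes of like POLR2A rank had a median of 12. Width had a median of 1654 bp in the 7 genes, against 1108 bp in all genes with the mark, 1185 bp in those that also have POLR2A, and 1206 bp in the 70 genes of like rank. The peaks at ALDOA, GAPDH and ENO1 were wider than or equal to 99.8%, 99.3% and 97.8% of the widest end peaks of all genes with the mark. HK2 stood at 86.3%, TPI1 at 75.8% and PGK1 at 69.3%, and PKM, whose mark is split into several peaks, at 31.5% with 896 bp. In height the same 3 widest peaks stood at 11.8%, 9.41% and 12.3%. Wide peaks are low in this list in general: 246 genes had an end peak at least as wide as that of ENO1, and their median fold enrichment was 7.65. Of these 246 genes, 220 had POLR2A at an end. POLR1A was at an end of 101 of them (41.1%), against 20.1% of all genes with H3K4me3. ALDOA, GAPDH and ENO1 were picked for the absence of POLR1A, so no contrast with these shares is read. These values come from 1 sample, and no test was possible.

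**Figure D3:**
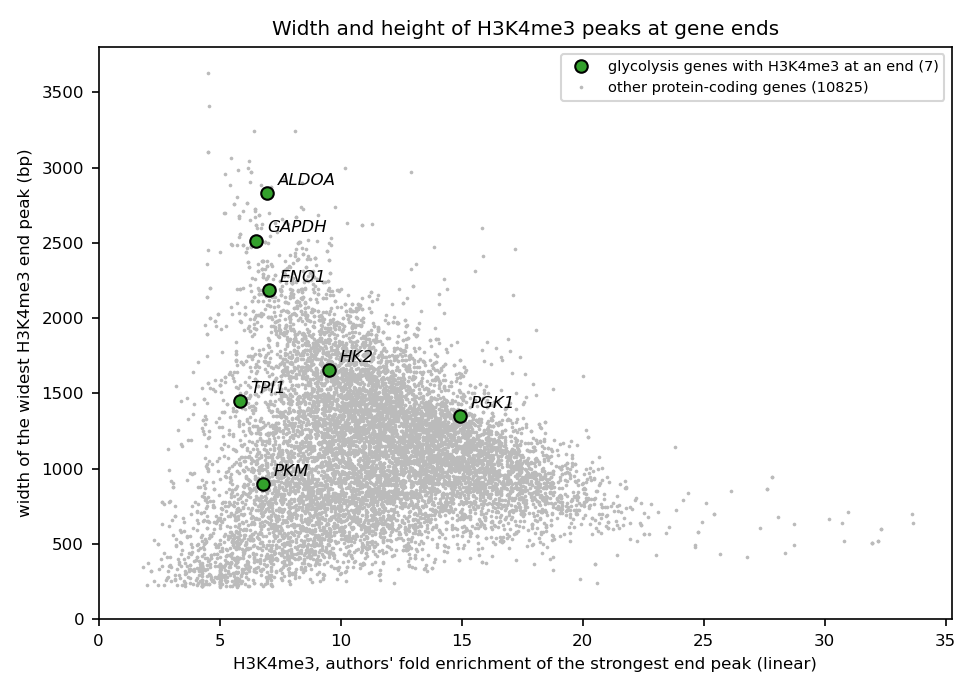
Width in bp of the widest H3K4me3 end peak against the authors' fold enrichment (linear) of the strongest one, for the 7 glycolysis genes with the mark at an end (green) and the other protein-coding genes (grey). ALDOA, GAPDH and ENO1 lie at the upper left, with widths of 2829, 2514 and 2187 bp, and PGK1 lies apart at 14.9.

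POLR2A and H3K4me3 were offset along the gene. The strongest POLR2A end peak overlapped H3K4me3 in 6 of the 7 genes (90.7% of all genes with POLR2A at an end), the exception being the TPI1 peak beyond its 3′ end. Summits were compared between that peak and the strongest H3K4me3 peak overlapping it. By this choice the POLR2A summit lay upstream in each of the 6, with a difference of -1208 bp at HK2, -776 bp at ENO1, -700 bp at PKM, -679 bp at GAPDH, -291 bp at ALDOA and -158 bp at PGK1. Over 6300 protein-coding genes with strand and an overlap, the POLR2A summit was upstream in 68.6%, with a median difference of -101 bp and a middle 50% of -286 to 27 bp. PGK1 was inside that middle range and the other 5 lay beyond it. At PKM the direction, and at GAPDH the size, depended on the choice of peak. The PKM POLR2A peak (summit 72231209, minus strand) also overlapped the weaker H3K4me3 peak (4.19). That peak had its summit at 72231699, so against it the POLR2A summit lay downstream. The weaker GAPDH POLR2A peak (3.95) had its summit at 6535041, just upstream of the H3K4me3 summit at 6535086. That difference was inside the middle range. In wide peaks the H3K4me3 summit has more room to lie far away, and how much of the offset goes with width was not tested. The median POLR2A summit of the 7 genes lay 132 bp before the nearest start, against 86 bp in all genes. The 7 include the TPI1 summit, 3625 bp past its nearest start. With the 5′ gene end alone, which leaves TPI1 out, the median of 6 genes was 152 bp before the start. Over all 17 POLR2A peaks at the 10 genes, 8 overlapped H3K4me3.

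POLR1A was looked for beyond the window as well. The nearest POLR1A peak was 6.80 kb from HK1 (7.10, at TACR2, beside a POLR2A peak of 9.58), 14.9 kb from TPI1 (10.2, at CDCA3 and USP5), 15.8 kb from GAPDH (4.37, at IFFO1) and 18.6 kb from ALDOA (5.76, at TLCD3B). It was 80.5 kb from PKM, 119 kb from LDHA, 285 kb from ENO1, 304 kb from HK2, 571 kb from GPI and 5970 kb from PGK1. The median of 99.5 kb is near that of the 6066 genes with POLR2A and no POLR1A at an end, which was 119 kb with a middle 50% of 35.8 to 359 kb. USP5 lies next to TPI1 on chromosome 12. TPI1 was picked for lacking POLR1A, and 11.2% of all protein-coding genes had POLR1A at an end, so no contrast with this neighbour is read.

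The remaining genes of the pathway had no POLR1A either. With the isoenzymes, 33 glycolytic enzyme genes were listed. POLR1A was at an end of 0 of them, against 11.2% of all protein-coding genes and 26% of those with POLR2A at an end. It was in the body of 0, against 4.72% of all protein-coding genes. The 10 are among these 33, and the list was drawn up with earlier results known, so the count is no independent support. Among the 23 others, 10 had POLR2A at an end (43.5%) and 12 had H3K4me3 (52.2%), both close to the shares of all genes. POLR2A was within 1 kb of a RefSeq start in 6 of the 10. These were BPGM, the bisphosphoglycerate mutase gene (16.6), LDHB, the heart-type lactate dehydrogenase gene (13.9), ADPGK (9.08), ENO4 (8.82, shared with HSPA12A), ALDOC (6.68, shared with SPAG5) and PFKM (4.06, shared with SENP1). In the other 4 the peak was away from the starts: PGAM1 (12.2), PKLR (10.1, shared with FDPS), ENO2 (7.5, shared with ATN1) and ENO3 (5.76, shared with PFN1). Shared means that the peak also lies within 1 kb of an end of that neighbour, to which it may belong.

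Phosphofructokinase, the main control point of glycolysis, had H3K4me3 at an end of all 3 of its genes (PFKM 13.3, PFKL 12.3, PFKP 7.93) and POLR2A at an end of PFKM alone. LDHB carried H3K4me3 at 14.4 and was the single enzyme gene with H3K9me3 at an end (4.04). H3K4me3 was also at ends of BPGM (15.7), ENO4 (14.4), ADPGK (11.1), PKLR (10.4), GAPDHS (8.33), PGAM1 (8.18), ENO2 (6.49) and ENO3 (5.66). At PKLR and GAPDHS no H3K4me3 peak lay within 1 kb of a listed RefSeq start. No peak of any list was found at 9 of the 23, among them the testis genes PGK2 and LDHC, the muscle gene PGAM2, and HK3.

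**Figure D4:**
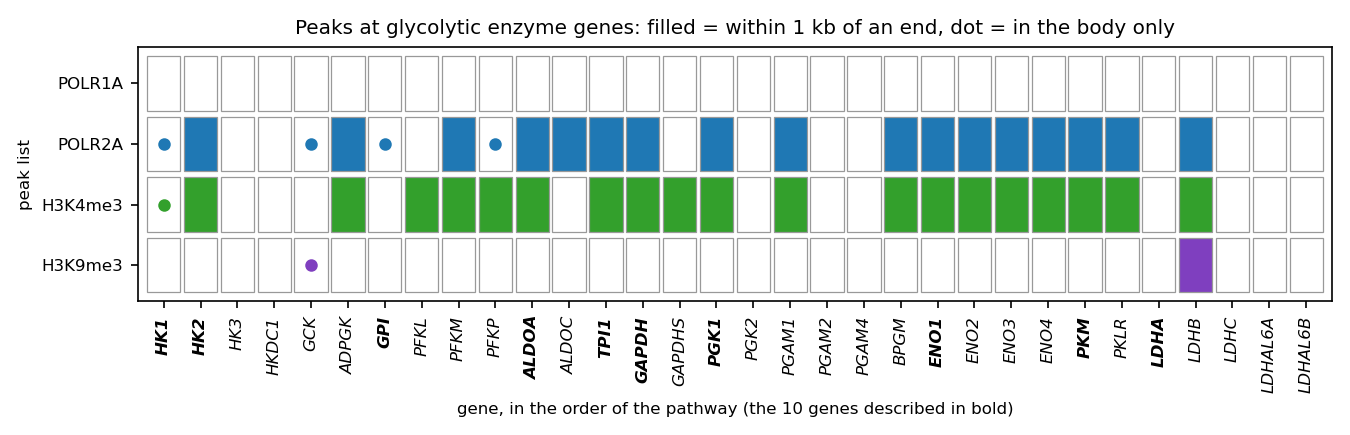
Presence of each target at the glycolytic enzyme genes in the order of the pathway, with the 10 genes in bold and 1 of the 33 not shown. Filled squares mark a peak within 1 kb of a gene end and dots a peak in the body only. The POLR1A row is empty, POLR2A is at an end of 17 genes, H3K4me3 of 19 and H3K9me3 of 1.

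In pathways that feed or drain glycolysis, POLR1A was at an end of 10 of 61 genes (16.4%), near the 11.2% of all protein-coding genes. Of the 38 of them with POLR2A at an end, 9 had POLR1A, against 26% of all genes with POLR2A. Of 7 pentose phosphate genes, 2 had it: PGD (8.05), the phosphogluconate dehydrogenase gene, and RPIA (7.39), with POLR2A at 13.8 and 13.7. Of 24 genes for glucose and lactate transport, regulation and pyruvate entry, 4 had it: MPC2 (6.56) and MPC1 (5.51) of the mitochondrial pyruvate carrier, HIF1A (6.12), the oxygen-sensing factor of the pathway, and DLAT (3.70) of pyruvate dehydrogenase. HIF1A and TIGAR had the highest POLR2A values there, 13.5 and 12.8. Of 21 citrate cycle genes, 3 had it, among them MDH1 (6.95, with the highest POLR2A of the list, 15.5) and IDH1 (5.19), while CS (POLR2A 14.7) had none. Of 9 gluconeogenesis genes, PC, the pyruvate carboxylase gene, had POLR1A at 9.27 with POLR2A at 22, and G6PC3 had POLR2A at 9.49 without POLR1A. Of the 61 genes, 38 had POLR2A (62.3%) and 47 had H3K4me3 (77%). No contrast with the 10 glycolysis genes is read from the POLR1A counts, since those genes were picked for its absence.

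**Figure D5:**
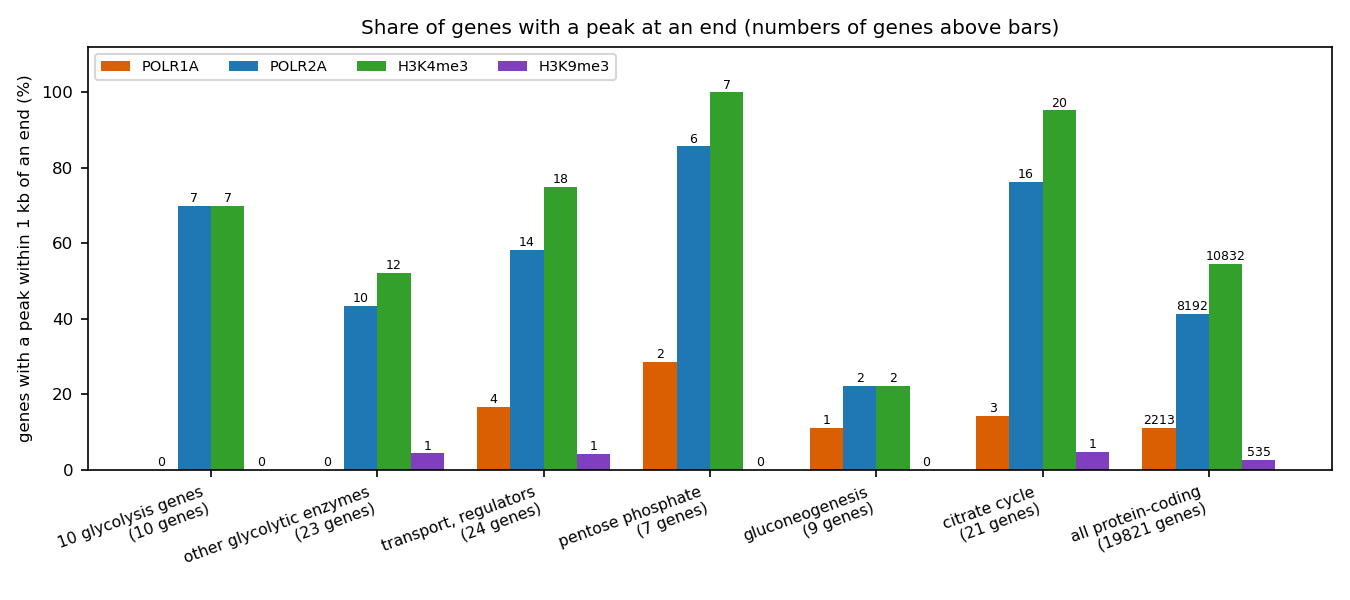
Percentage of genes with a peak within 1 kb of either end, by peak list, for the 10 glycolysis genes, the other 23 glycolytic enzyme genes, 4 lists of neighbouring pathways and all protein-coding genes. Numbers above the bars count genes. POLR1A stands at 0 in both glycolytic lists, at 4, 2, 1 and 3 genes in the neighbouring lists and at 11.2% of all protein-coding genes.

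Reads from near-identical copies can be placed at either copy, so the pseudogenes named after these 10 genes were read as well. RefSeq names 87 of them on these chromosomes, 63 of GAPDH, 6 of LDHA and 5 of PKM. In them or within 1 kb, 0 had POLR1A (1.11% of all pseudogenes), 4 had POLR2A (3.77%), 2 had H3K4me3 (2.91%) and 3 had H3K9me3 (3.79%), all close to the background. PKMP3 on chromosome 6 carried POLR2A (7.46), H3K4me3 (9.08) and H3K9me3 (4.98). TPI1P2 carried POLR2A (9.56) and H3K4me3 (12.4) and lies inside TNPO3, near its end. Each of the others had a peak of 1 list: POLR2A at GAPDHP62 (3.71) and HK2P1 (2.8), and H3K9me3 at GAPDHP50 (3.37) and GAPDHP38 (5.45). None of the 6 LDHA pseudogenes had a peak. How repeated sequence was handled upstream is unknown here, and GAPDH has the most such copies of the 10 genes.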

How the data were processed

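CUT&Tag samples of HCT116 cells gave 4 deposited peak lists in the layout of MACS2: 1 each for POLR1A, POLR2A and H3K9me3, whose names match all 3 samples of a target and no replicate, and 1 for the single H3K4me3 sample. The files have no header line. Their columns follow the narrowPeak order and the peak names carry macs2, so each peak was read as having the authors' fold enrichment (a linear ratio), the authors' −log10 p, the authors' −log10 q (a score per peak) and a summit offset. The lowest −log10 q of each list is just above 1, a q threshold of 0.1. Per the submitters' processing notes, which assign no step to any tool, the software was DESeq2 1.44.0, HTSeq 2.0.2, RSEM 1.3.3, deepTools 3.1.1, SAMtools 1.6, FastQC 0.12.0 and STAR, with the builds hg38 and GRCh38. The sources used here do not give caller settings, controls, pooling or the treatment of repeated sequence. Read depth is unknown.

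Peaks on chromosomes 1 to 22 and X were joined to RefSeq genes (GRCh38.p14) in Python 3.11.15 with pandas 2.3.3. A peak counted by 1 shared base in a window of 1 kb on each side of either gene end, and otherwise in the body. Strand and transcript starts came from the RefSeq promoter table, which holds 15813 of 19821 protein-coding genes (79.8%). The interval code was tested on simulated data. All 10 genes were named, with each other enzyme gene that had a peak at an end, and from the neighbouring lists each gene with POLR1A and the 2 highest by POLR2A; some genes are counted in the lists but not reported here by name. Members, lists, motifs and rules were chosen with earlier results of these data known. Lists of unreplicated peaks allowed no test, so counts are set beside the share of all protein-coding genes. Alternatives were a −log10 q of at least 5, lists of equal length, windows of 500 bp and 2 kb, the 5′ end alone, summits in place of edges, and, chosen after seeing the data, windows at every transcript start.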

Additional observations from a re-analysis of the deposited data

How the results depend on the processing

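POLR1A was at 0 of the 10 genes' ends and 0 of the 33 enzyme genes' ends under all 7 alternatives. In the 10 gene bodies it was at 0 under the 5 that were applied to bodies. These counts are no support, since the 10 genes were picked for the absence of POLR1A. Only the window of 2 kb at gene ends could have added a POLR1A call. The others search within the same space or drop peaks, and equal length leaves the POLR1A list, the shortest, unchanged. Windows of 500 bp or 2 kb, the 5′ end alone, summits in place of edges, and windows at every transcript start moved no count of the lists by more than 1.5 times. The count of the 10 genes with POLR2A at an end was 5 to 7 throughout. With every list shortened to the 3812 best peaks by −log10 p, H3K4me3 was at an end of 3 of the 10 genes (ALDOA, GAPDH and PGK1) and in the body of 0, POLR2A was in the body of 1, and 2 of 5 POLR2A end peaks overlapped H3K4me3. In that setting 8 of the 33 enzyme genes had POLR2A, 11 had H3K4me3 and 0 had H3K9me3. Among the 61 neighbouring pathway genes 14 had POLR2A, 21 had H3K4me3 and 0 had H3K9me3. Among 87 pseudogenes 0 had POLR2A, 1 had H3K4me3 and 0 had H3K9me3. Fewer peaks enter there by construction. At a −log10 q of at least 5, POLR1A was at 6 of the 61 neighbouring genes, POLR2A at 2 of the 87 pseudogenes, and H3K9me3 at 0 of the 33, 0 of the 61 and 0 of the 87. The 5′ end and transcript starts were not applied to bodies or pseudogenes. No paired analysis was possible because no list holds values per replicate, and replicates could not be left out in turn for the same reason. The unknown depth limits every absence: a gene without a peak is one without a call at this depth.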

Other observations

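GPI and LDHA, the genes without POLR2A or H3K4me3 at a start, lay in long stretches without H3K4me3 peaks. No H3K4me3 peak was found for 542 kb around GPI, between 34135126 and 34676842 on chromosome 19, a stretch that also holds LSM14A, GARRE1, PDCD2L, UBA2 and WTIP. Peaks of other lists do lie inside it, among them the POLR2A peak in the GPI body, and a POLR2A peak (3.58) and an H3K9me3 peak (3.91) at SCGB2B2. Around LDHA the H3K4me3 list was empty for 411 kb, between 18115726 and 18526341 on chromosome 11, which holds 11 protein-coding genes including HPS5 and GTF2H1, and no list had a peak for 305 kb. Of all protein-coding genes, 17.8% lay in an H3K4me3-free stretch at least as long as that of GPI and 20.6% in one at least as long as that of LDHA.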
